A study of Homo sapiens with 3 samples.

Results

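Mucins are large glycoproteins whose protein backbone carries dense O-linked sugar chains. The secreted gel-forming mucins build the mucus layer of the airway and gut, and the membrane-bound mucins stand on the cell surface, where several of them take part in signalling and in shielding the cell. Mucin genes are of interest in lung adenocarcinoma because this tumour often retains features of secretory epithelium. Here, 10 mucin genes out of 20163 protein-coding genes were examined. They were chosen by name, with earlier results of these data known. These were the gel-forming genes MUC2, MUC5AC, MUC5B and MUC6, and the membrane-bound genes MUC1, MUC4, MUC13, MUC16, MUC20 and MUC21. For each gene, the peaks over the gene body or within 20 kb of it were taken on hg19, with gene positions from GENCODE 44.

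The data came from untreated H2087 cells, an established line of human lung adenocarcinoma. ChIP-seq was done for H3K27ac, the acetylation of lysine 27 on histone H3, and for H3K4me3, the trimethylation of lysine 4. H3K27ac is known to mark active promoters and enhancers, and H3K4me3 to mark promoters. There were 3 samples, 1 library for each mark and 1 input library, which was not analysed here. All values therefore describe single libraries of a single cell line, with no replicate and no test between the marks. Each peak has a value that was read, from the numbers alone, as the −log10 q of the peak caller, so a larger value means a stronger call within its own list. The list medians were 2.65 for the 24096 H3K27ac peaks and 2.97 for the 18585 H3K4me3 peaks. Depth is unknown from these lists and the copy number of each locus was not analysed here. At a gene without a peak, absence of the mark and too few reads cannot be told apart.

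The epithelial identity of the cells was visible at its markers. All 6 epithelial markers (EPCAM, CDH1, KRT7, KRT8, KRT18 and KRT19) had H3K4me3 within 1 kb of the gene start, and 5 of them had H3K27ac as well. Of the 5 lung lineage markers, NKX2-1, a transcription factor of lung epithelium, had both marks, whereas NAPSA and the surfactant genes SFTPA1, SFTPB and SFTPC had neither. The H3K4me3 peak of NKX2-1 was weak (−log10 q 1.58, above 12.4% of its list), and its stronger H3K27ac peak had 2.82 (above 52.9%). No start of the squamous, blood, endothelial or fibroblast markers was marked. PECAM1 was not found in the annotation and was left out.

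The sequences on which the descriptions of single mucin genes turn are given first, as they read on hg19 in the direction of transcription. Each is the central 300 bases of a peak near a mucin gene start. The peaks were the H3K4me3 peak of MUC4 at chr3:195537356-195537655 on the minus strand, the H3K27ac peak of MUC2 at chr11:1074235-1074534 on the plus strand, the H3K4me3 peak of MUC5B at chr11:1243741-1244040 on the plus strand and the H3K27ac peak of MUC16 at chr19:9119300-9119599 on the minus strand. None of the stretches held an exon of the gene's canonical transcript in the annotation. For MUC4 this followed from the choice, since an intron peak that overlapped H3K27ac was asked for. The H3K4me3 peak over exon 1 of MUC4 lay nearer the start and was not taken. Capitals mark matches to any of 9 short motifs searched on both strands.
MUC4: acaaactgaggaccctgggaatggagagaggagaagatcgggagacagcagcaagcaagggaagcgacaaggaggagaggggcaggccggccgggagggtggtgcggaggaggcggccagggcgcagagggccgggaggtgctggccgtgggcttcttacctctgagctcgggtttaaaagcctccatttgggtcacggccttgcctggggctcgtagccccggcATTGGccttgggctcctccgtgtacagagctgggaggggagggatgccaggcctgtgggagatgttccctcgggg
MUC2: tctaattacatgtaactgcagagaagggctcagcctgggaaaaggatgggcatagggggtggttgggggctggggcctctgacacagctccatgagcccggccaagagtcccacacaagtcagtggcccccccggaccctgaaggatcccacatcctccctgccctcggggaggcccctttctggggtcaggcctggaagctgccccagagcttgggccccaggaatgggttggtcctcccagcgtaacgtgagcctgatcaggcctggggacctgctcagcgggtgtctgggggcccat
MUC5B: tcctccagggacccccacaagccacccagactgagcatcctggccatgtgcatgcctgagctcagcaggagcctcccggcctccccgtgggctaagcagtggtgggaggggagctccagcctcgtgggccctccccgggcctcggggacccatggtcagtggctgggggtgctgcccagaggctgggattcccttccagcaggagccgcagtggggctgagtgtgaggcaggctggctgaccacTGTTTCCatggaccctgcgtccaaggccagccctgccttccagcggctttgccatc
MUC16: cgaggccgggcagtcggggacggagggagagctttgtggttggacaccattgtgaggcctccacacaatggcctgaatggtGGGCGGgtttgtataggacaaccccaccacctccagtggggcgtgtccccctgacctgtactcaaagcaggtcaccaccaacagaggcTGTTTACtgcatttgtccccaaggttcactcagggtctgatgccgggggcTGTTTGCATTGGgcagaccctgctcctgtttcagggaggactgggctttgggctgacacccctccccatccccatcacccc
The motifs were the GC box (GGGCGG), the AP-1 site (TGANTCA), the forkhead core (TGTTTNC), the ETS core (CCGGAA), the E-box (CACGTG), the NKX2 core (CAAGTG), the CCAAT box (CCAAT), the TATA box (TATAAA) and the STAT site (TTCNNNGAA).

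The MUC16 stretch held the most matches. A GC box lay at bases 82 to 87, counted from 1 at the left end as printed. Forkhead cores lay at bases 170 to 176 and 220 to 226, and a CCAAT box on the opposite strand followed directly at bases 227 to 231. No match overlapped another. The MUC4 stretch held a CCAAT box on the opposite strand at bases 226 to 230, and the MUC5B stretch a forkhead core at bases 245 to 251. The MUC2 stretch matched none of the 9 motifs. Such matches are common. The shares over whole lists were taken in the 300 bases around the middle of each peak. For shorter peaks these bases include flanks, and the median widths were 284 bp (H3K27ac) and 305 bp (H3K4me3). For all H3K27ac peaks, a forkhead core was found in 13.9%, a GC box in 22.9% and a CCAAT box in 21.5%. In H3K4me3 peaks these shares were 13.0%, 37.8% and 19.9%. The other 6 motifs were found in 5.03% (AP-1 site), 6.31% (ETS core), 5.06% (E-box), 18.1% (NKX2 core), 5.44% (TATA box) and 5.69% (STAT site) of the H3K27ac peaks. In the same order, the H3K4me3 shares were 3.75%, 9.77%, 4.62%, 14.2%, 4.89% and 5.42%. The matches describe letters only, and no factor was measured here.

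H3K27ac was found near most of the mucin genes, whereas H3K4me3 was found near fewer of them. An H3K27ac peak lay over the gene or within 20 kb for 9 of the 10 genes, and this held for 54.2% of all protein-coding genes. An H3K4me3 peak lay there for 4 of the 10, MUC1, MUC4, MUC5B and MUC13, and for 61.6% of all genes. For 5 of the 10 genes, MUC2, MUC5AC, MUC6, MUC16 and MUC20, H3K27ac was present with no H3K4me3 peak in the same window. That combination was found at 7.44% of all protein-coding genes. The H3K27ac peaks of MUC5AC (2.47), MUC16 (2.57) and MUC20 (1.74) were below their list median of 2.65. An assembly gap covers 70.6% of the length of MUC5AC. MUC21 was the 1 gene without a peak of either mark, a state shared by 30.9% of all genes. With 10 genes, several of them neighbours, these counts are descriptions.

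**Figure D1:**
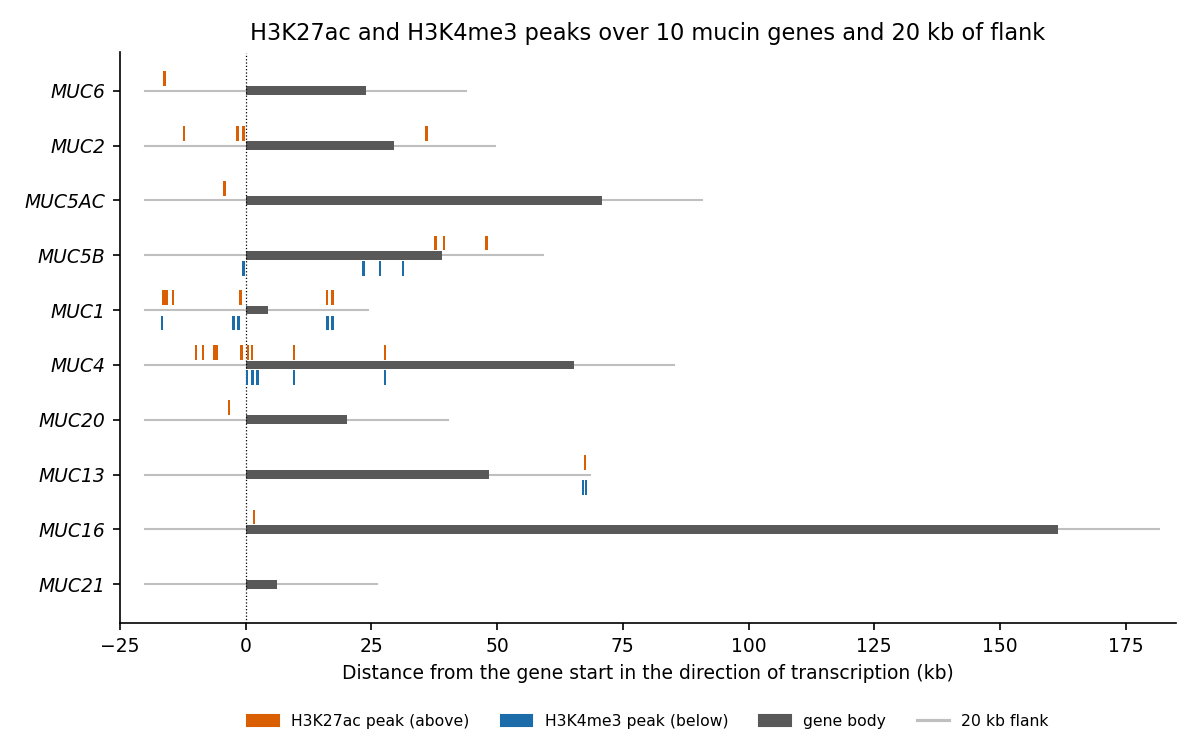
Map of the 25 H3K27ac peaks (above each line) and 16 H3K4me3 peaks (below) by distance from the gene start in kb, with the gene body as a dark bar and the 20 kb flanks as a thin line. Peaks under 0.5 kb are drawn 0.5 kb wide. MUC4 and MUC1 hold the most peaks and MUC21 holds none.

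Within 1 kb of the outer gene start, MUC1, MUC2 and MUC4 had H3K27ac, which is 3 of 10 beside 23.6% of all coding genes. MUC4 and MUC5B had H3K4me3, which is 2 of 10 beside 38.2%. MUC4 was the only mucin gene of the 10 with both marks there, and 18.6% of all coding genes had both. The windows, some of which overlap between neighbours, held 41 peaks, 25 of H3K27ac and 16 of H3K4me3, and no peak fell into the windows of 2 mucin genes. The gel-forming genes had 9 H3K27ac and 4 H3K4me3 peaks, and all 4 of the H3K4me3 peaks belonged to MUC5B. The membrane-bound genes had 16 and 12, all but 2 of the H3K27ac peaks being those of MUC1, MUC4 and MUC13.

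Fewer peaks had a mucin gene as their nearest coding gene, which does not show that they belong to it. The nearest protein-coding start was that of a mucin gene for 19 of 25 peaks with H3K27ac and 11 of 16 with H3K4me3. The other peaks lay nearest to KRTCAP2, TRIM46, THBS3 and MTX1 around MUC1, to ITGB5 beside MUC13 and to TOLLIP beyond MUC5B. The mucin-nearest H3K27ac peaks had a median −log10 q of 2.45 (range 1.41 to 5.31), and those nearest to another gene had a median of 4.49 (2.59 to 12.0). The corresponding H3K4me3 medians were 3.54 (1.72 to 8.88) and 4.08 (2.07 to 6.66). The ranges overlapped for both marks.

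**Figure D2:**
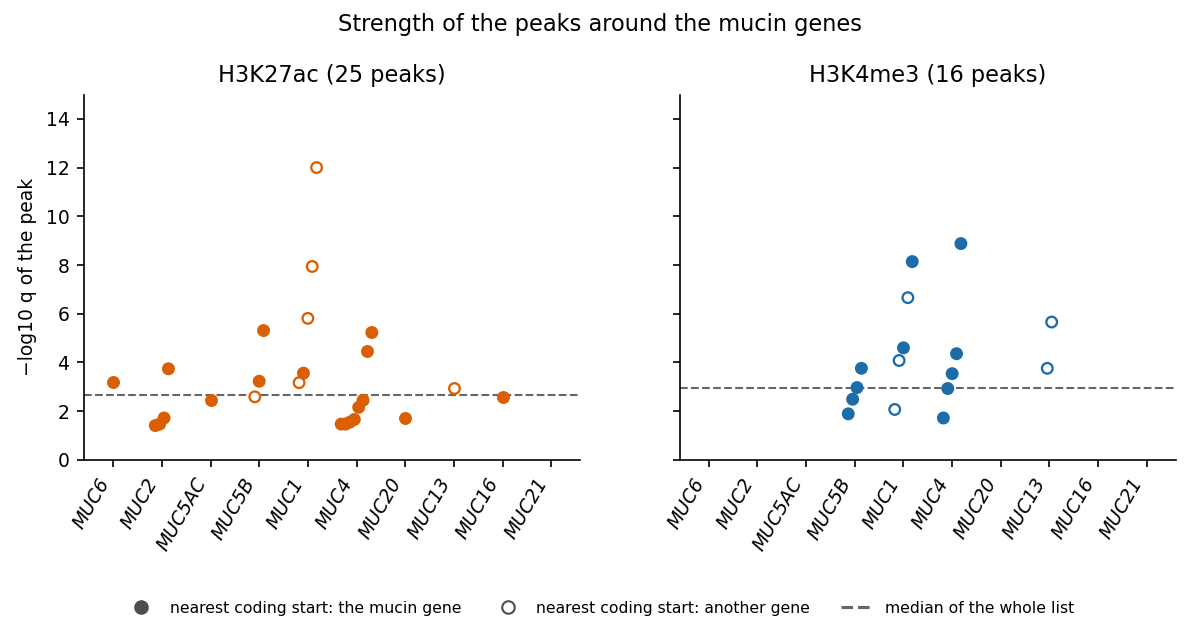
The −log10 q of each peak in the window of each mucin gene, for H3K27ac (left) and H3K4me3 (right). Filled points have the mucin start as their nearest coding start and open points another gene's start. Dashed lines are the list medians of 2.65 and 2.97, and the highest H3K27ac point, 12.0, is an open point in the MUC1 window.

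The marks overlapped by at least 1 bp at 9 of 25 peaks with H3K27ac (36.0%, exact Clopper-Pearson 95% interval 18.0 to 57.5) and at 10 of 16 with H3K4me3 (62.5%, 35.4 to 84.8). The intervals hold for counting error alone, and neighbouring peaks are not independent. Over the whole lists the shares were 24.0% and 31.1%. When the peaks nearest to another gene's start were set aside, 5 of 19 H3K27ac peaks (26.3%, 9.15 to 51.2) and 5 of 11 H3K4me3 peaks (45.5%, 16.7 to 76.6) overlapped. All 5 H3K4me3 peaks nearest to another gene overlapped H3K27ac.

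MUC4 encodes a large membrane-bound mucin of the airway surface that binds the receptor ERBB2. It lies on the minus strand of chromosome 3 at 195473636 to 195538844 and had the most peaks of the 10 genes, 8 of H3K27ac and 5 of H3K4me3. At least as many H3K27ac peaks in the window were found at 5.1% of all coding genes. The MUC4 window was 105 kb long, against a median of 67.2 kb over all coding genes. The strongest of the 16 H3K4me3 peaks lay at 195537349 to 195537663 in intron 1 of MUC4. Its −log10 q was 8.88, above 97.8% of its list, and its edge lay 1181 bp inside the gene. This peak, whose sequence is shown above, lay wholly within an H3K27ac peak at 195537301 to 195537876 with a −log10 q of 2.45.

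Both marks were weaker in the overlapping peaks at the MUC4 start than in the intron pair described above, whereas H3K27ac just upstream was stronger. An H3K4me3 peak over exon 1, at 195538399 to 195538717, had a −log10 q of 2.93 and overlapped an H3K27ac peak of 1.55. A second H3K27ac peak 619 bp upstream of the start had a −log10 q of 4.45, above 88.1% of its list. Further H3K4me3 peaks in intron 1 had values of 3.54, 2032 bp inside the gene, and 4.36, 9436 bp inside the gene. The latter overlapped an H3K27ac peak of 1.47. Upstream of the gene, H3K27ac peaks without H3K4me3 followed, the strongest at 195544384 to 195545313 with 2 summits and a −log10 q of 5.23. Beyond it lay H3K27ac peaks of 1.47 and 2.16. H3K4me3 was thus found from exon 1 inward, and the upstream peaks carried H3K27ac alone.

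H3K27ac peaks at most 10 kb apart were joined into regions. The MUC4 region ran from 195529001 to 195548839, or 19.8 kb, and joined 7 H3K27ac peaks, with 4 H3K4me3 peaks inside it. Of the 4606 regions with at least 2 H3K27ac peaks, 9.25% had 7 or more.

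The remaining pair of MUC4 peaks lay inside exon 2, the long exon that codes for the repeated, sugar-bearing part of the protein. An H3K4me3 peak (−log10 q 1.72) and an H3K27ac peak (1.66) overlapped there, both in the lower part of their lists. The bases under both peaks, chr3:195511022-195511258 on the minus strand, are shown because they are themselves repeats. Capitals and lower case alternate with each 48-base unit.
MUC4 exon 2: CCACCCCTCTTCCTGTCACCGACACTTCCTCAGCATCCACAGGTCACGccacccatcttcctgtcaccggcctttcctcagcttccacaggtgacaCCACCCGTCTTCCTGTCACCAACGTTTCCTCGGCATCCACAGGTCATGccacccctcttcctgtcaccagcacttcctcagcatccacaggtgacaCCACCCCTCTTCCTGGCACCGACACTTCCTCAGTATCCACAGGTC
The stretch of 237 bases held 4 whole units and part of another, each unit being 16 codons long. Shifted by 48 bases it was identical to itself at 84.7% of positions, and shifted by a base more or less the identity fell to at most 26.6%. Words of 32 bases were taken every 20 bases along the gene windows and the peaks. Their copies were counted at every position of hg19, on both strands. Of the words under these peaks, 54.5% (H3K4me3) and 45.5% (H3K27ac) occurred more than once in hg19, as did 55.0% of the words in exon 2, which is 12.7 kb long. How repeated sequence bears on these weak peaks was not tested.

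**Figure D3:**
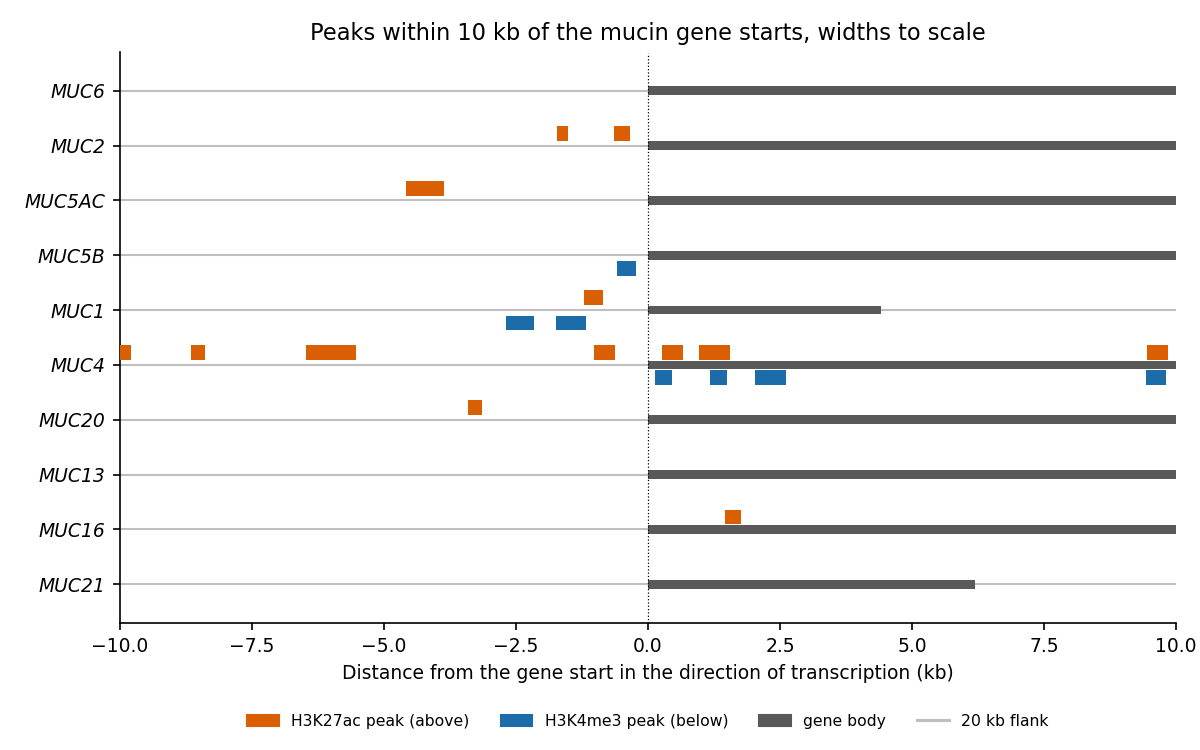
Peaks within 10 kb of each gene start by distance in kb, with widths to scale, H3K27ac above and H3K4me3 below the line of each gene. The MUC4 start has H3K27ac on both sides and H3K4me3 inside the gene only, whereas the MUC2 start has H3K27ac alone and the MUC5B start H3K4me3 alone.

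MUC1, the classical membrane-bound mucin of glandular epithelium, lies on the minus strand of chromosome 1 at 155158300 to 155162707. Its window held 10 peaks and the gene body had none. Upstream of the start by 850 bp lay H3K27ac at 155163557 to 155163911, with a −log10 q of 3.56, above 77.0% of its list. An H3K4me3 peak at 155163875 to 155164446 (4.60) began within it and lay 1168 bp upstream, just outside the 1 kb limit. The peaks shared only 37 bp, and 35.7% of the words under the H3K4me3 peak occurred more than once in hg19. The nearest start of any gene to this H3K4me3 peak was that of the noncoding gene THBS3-AS1, 341 bp away.

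The stronger H3K4me3 peak upstream of MUC1 covered another gene. It ran from 155164859 to 155165392, had 2 summits and a −log10 q of 8.14, above 96.8% of its list, and no H3K27ac peak overlapped it. The whole of MIR92B, a microRNA gene on the plus strand at 155164968 to 155165063, lay inside it, and the long noncoding RNA gene THBS3-AS1 started at 155164787. Because its mature products identify that gene, they are given here from RefSeq (GRCh38.p14), with the seed, bases 2 to 8, in capitals.
hsa-miR-92b-3p: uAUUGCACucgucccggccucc
hsa-miR-92b-5p: aGGGACGGgacgcggugcagug
The remaining peaks in the MUC1 window lay at neighbours on both sides. H3K27ac at KRTCAP2, a gene of the oligosaccharyltransferase complex, reached a −log10 q of 12.0, above 99.8% of its list and the highest of all 25. A wide H3K27ac peak of 1244 bp covered the starts of THBS3 and MTX1 with a value of 7.94, and a further one of 5.81 lay 1124 bp upstream of MTX1. An H3K27ac peak of 3.17 lay 118 bp inside TRIM46. Of the 5 peaks of each mark in this window, 4 with H3K27ac and 3 with H3K4me3 had their nearest protein-coding start in another gene.

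The gel-forming genes form a cluster on chromosome 11 in the order MUC6, MUC2, MUC5AC and MUC5B, which spans 271 kb from 1012823 to 1283402. The cluster contained 7 H3K27ac peaks and 4 H3K4me3 peaks. No H3K4me3 peak was found between 926633 and 1243712, a stretch of 317 kb that held 7 H3K27ac peaks. Of this stretch, 50000 bases inside MUC5AC, at 1162760 to 1212759, are an assembly gap of hg19 where no peak could be called. The stretch ended at the H3K4me3 peak upstream of MUC5B. The nearest H3K4me3 peak was 148 kb from the start of MUC2, 110 kb from that of MUC6 and 92.1 kb, the gap included, from that of MUC5AC. The median distance over all coding starts was 12.1 kb.

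MUC5B, a main gel-forming mucin of the airways, lies on the plus strand at 1244296 to 1283402. Its outer start had H3K4me3 alone. The peak at 1243712 to 1244069, 227 bp upstream, had a −log10 q of 3.76, above 65.6% of its list. The nearest H3K27ac peak was 37.5 kb from the outer start, near the 3′ end of the gene. When the starts of every transcript were taken, H3K27ac lay within 1 kb of a MUC5B start. The sequence of the H3K4me3 peak is given above.

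Inside MUC5B, H3K4me3 peaks of 2.97 and 1.89 lay wholly within exon 31, the long exon of the repeated mucin domain. This exon is 10.9 kb long, and 59.3% of its words occurred more than once in hg19, as did 40.0% and 53.8% of the words under these peaks. The weaker peak, at 1270865 to 1271149, also covered the start of the antisense gene MUC5B-AS1 at 1270906. The part of the repeats in these peaks was not tested. A peak of 2.49 lay at exon 34. At the 3′ end, H3K27ac peaks had values of 3.23 at exon 48 and 5.31 just beyond the gene, at 1283500 to 1283867, and the latter was the strongest H3K27ac peak of the gel-forming genes. None of the MUC5B peaks overlapped a peak of the other mark.

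MUC2, the gel-forming mucin of the intestine, lies on the plus strand at 1074875 to 1104416 and had the reverse pattern at its outer start. Its 4 peaks were all H3K27ac. The peak at 1074227 to 1074542, 333 bp upstream, had a −log10 q of 3.74, above 79.7% of its list. A weak peak of 1.47 lay 1521 bp upstream, and peaks of 1.72 and 1.41 lay 12072 bp upstream and beyond the 3′ end. H3K27ac was thus strongest next to the start, with no H3K4me3 peak in the window.

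MUC5AC, a gel-forming mucin of airway and stomach, lies on the plus strand at 1151580 to 1222364. It had 1 peak, H3K27ac at 1146995 to 1147714, 3866 bp upstream, with a −log10 q of 2.47. The peak was 720 bp wide, against a list median of 284 bp. The assembly gap makes up 70.6% of the length of this gene. Reads from that part had no place to map, so the peaks of MUC5AC describe its ends only. MUC6, a gel-forming mucin of the stomach, lies on the minus strand at 1012823 to 1036718. It also had 1 peak, H3K27ac at 1052771 to 1052981 (3.21), 16.1 kb upstream inside the noncoding gene LINC02688.

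Among the other membrane-bound genes, peaks were sparse. MUC16, which encodes the tumour antigen CA-125, lies on the minus strand of chromosome 19 at 8959520 to 9121066. Its 1 peak was H3K27ac at 9119300 to 9119600 with a −log10 q of 2.57, above 48.2% of its list. The peak lay 1466 bp inside the outer start and outside the canonical transcript of the gene. The canonical transcript of the annotation starts 29048 bp further in, at 9092018, and its nearest H3K27ac peak was this one, 27282 bp away. The nearest H3K4me3 peak was 130 kb from the outer start.

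MUC20, a membrane-bound mucin that lies beside MUC4 on the plus strand at 195447755 to 195467994, had 1 peak. It was H3K27ac at 195444338 to 195444612 (1.74, above 18.3% of its list), 3143 bp upstream and inside the noncoding gene MUC20-OT1. Of the words under this peak 30.8% occurred more than once in hg19, as did 34.3% of those in the gene and 77.4% of those in exon 2. No H3K4me3 peak lay between 195163672 and 195511012, a stretch of 347 kb that includes MUC20. The neighbours MUC4 and MUC20 thus had 13 peaks and 1 peak in their windows.

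MUC13, a membrane-bound mucin mainly of the gut, lies on the minus strand of chromosome 3 at 124624289 to 124672663, and had no peak over the gene. The 3 peaks in its window were H3K27ac of 2.95 and H3K4me3 of 5.66 and 3.76, all beyond its 3′ end inside the integrin gene ITGB5 and about 67 kb from the outer MUC13 start. The canonical transcript starts 19068 bp further in, at 124653595, with H3K27ac 48116 bp and H3K4me3 47824 bp away. MUC21, a membrane-bound mucin of chromosome 6 at 30951495 to 30957680, had no peak in its window. Its nearest H3K27ac peak was 43.9 kb and its nearest H3K4me3 peak 97.1 kb from the start. H3K27ac was nearer at 55.6% and H3K4me3 at 74.3% of all coding starts.

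The 10 genes shared a base composition that the choice by name did not use. In the 1001 bp around the outer start, none of the 10 had a GC content of at least 50% together with an observed to expected CpG ratio of at least 0.6, which 57.5% of all coding starts had. Their CpG ratio ranged from 0.123 at MUC13 to 0.454 at MUC6, and the median of all starts was 0.686. GC content ranged from 44.5% at MUC13 to 70.4% at MUC6, on both sides of the median of 59.1%. The low ratio thus came with GC contents both high and low.

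**Figure D4:**
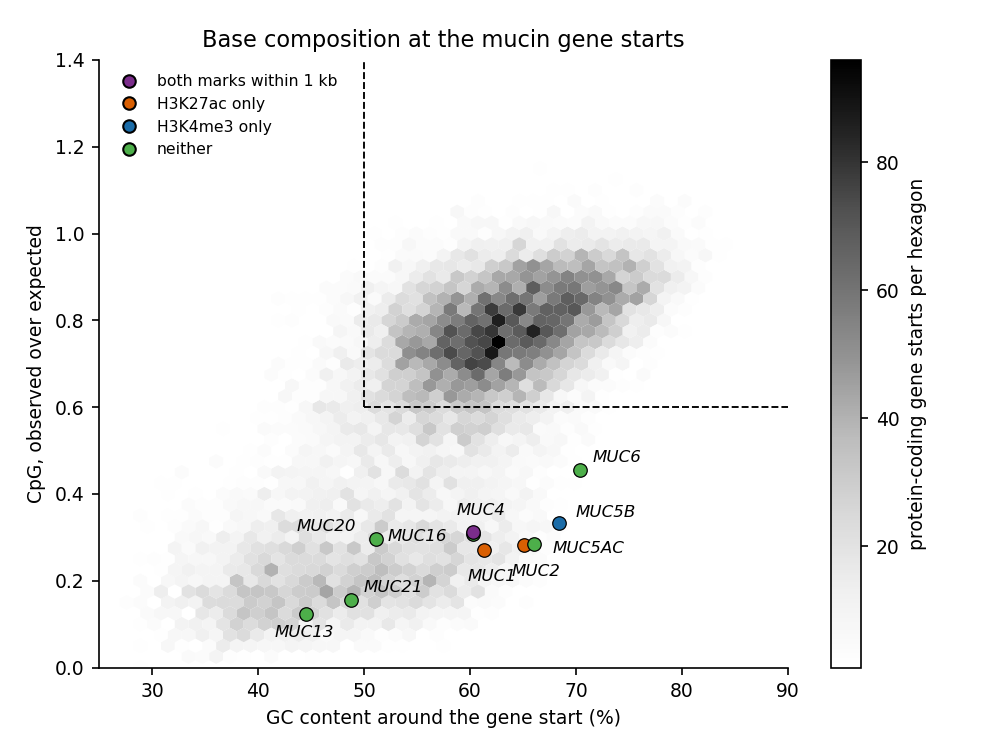
GC content (%) and observed to expected CpG ratio of the 1001 bp around the start, for all coding genes as grey hexagons and the 10 mucin genes as points coloured by the marks within 1 kb. Dashed lines are the minimum values of 50% and 0.6, and all 10 points lie below a ratio of 0.6, between 0.123 and 0.454.

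Marks at coding starts differed with this composition. Of the starts that passed both minimum values, 57.3% had H3K4me3 and 33.4% had H3K27ac within 1 kb. Of those that failed, 12.3% had H3K4me3 and 10.3% had H3K27ac. Beside these latter shares, 2 and 3 of the 10 mucin starts were marked. In the wider windows, 42.8% of the genes with failing starts had H3K27ac, 44.7% had H3K4me3 and 9.33% had H3K27ac with no H3K4me3, against 9, 4 and 5 of the 10 mucin genes. Base composition moved with the marks across genes, and its part in the values of the mucin genes was not tested.

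Genes that act with mucins were described by 5 lists of 82 genes in all. Within 1 kb of the start, 22 (26.8%) had H3K27ac, 23 (28.0%) had H3K4me3 and 13 (15.9%) had both, beside 23.6%, 38.2% and 18.6% of all coding genes. Among 12 other mucin and mucin-like genes, CD164, a sialomucin, had a weak H3K27ac peak (1.55), and no start had H3K4me3. MUC3A, MUC12 and MUC17, a cluster of membrane-bound gut mucins, had neither mark at the start.

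Among 31 enzymes that build O-linked sugar chains, 10 had H3K27ac, 9 had H3K4me3 and 7 had both. GALNT6, which attaches the first sugar, had the strongest start of these lists, with a −log10 q of 16.3 for H3K4me3 and 6.96 for H3K27ac. GALNT10, of the same family, had 5.36 and 4.27, and GALNT4 had 3.30 and 4.29. C1GALT1, which extends the chain, and its chaperone gene C1GALT1C1 had neither mark at the start. The C1GALT1 window held 3 H3K27ac and 4 H3K4me3 peaks, and the C1GALT1C1 window none.

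Of 19 secretory cell factors and products, 4 had H3K27ac, 2 had H3K4me3 and 1 had both. The gene with both was FOXA1, a forkhead factor, with 5.41 for H3K4me3 and 3.04 for H3K27ac. SPDEF, a factor of goblet cells, had H3K27ac alone (5.12), as did FOXA2 and FOXA3 (2.82 each), and CREB3L1 had H3K4me3 alone (7.56). AGR2, the trefoil factor genes TFF1, TFF2 and TFF3 and the club cell gene SCGB1A1 had neither mark at the start. The factor genes XBP1 and STAT6 also had neither at the outer start. The STAT6 window held 11 H3K27ac and 8 H3K4me3 peaks, and the XBP1 window none.

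Of 12 genes for the release of mucin granules, 5 had H3K27ac, 7 had H3K4me3 and 3 had both. Those with both included P2RY2, the receptor through which ATP triggers mucin release, and VAMP8, a protein of vesicle fusion, with H3K4me3 values of 4.34 and 3.33. Of 8 partners of membrane-bound mucins, 2 had H3K27ac, 5 had H3K4me3 and 2 had both. EGFR had 9.27 for H3K4me3 and 5.82 for H3K27ac, and the kinase gene SRC had 3.30 and 5.62. At the start, ERBB2, the receptor bound by MUC4, had H3K4me3 alone (3.87), and MSLN, which binds MUC16, had neither mark.

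**Figure D5:**
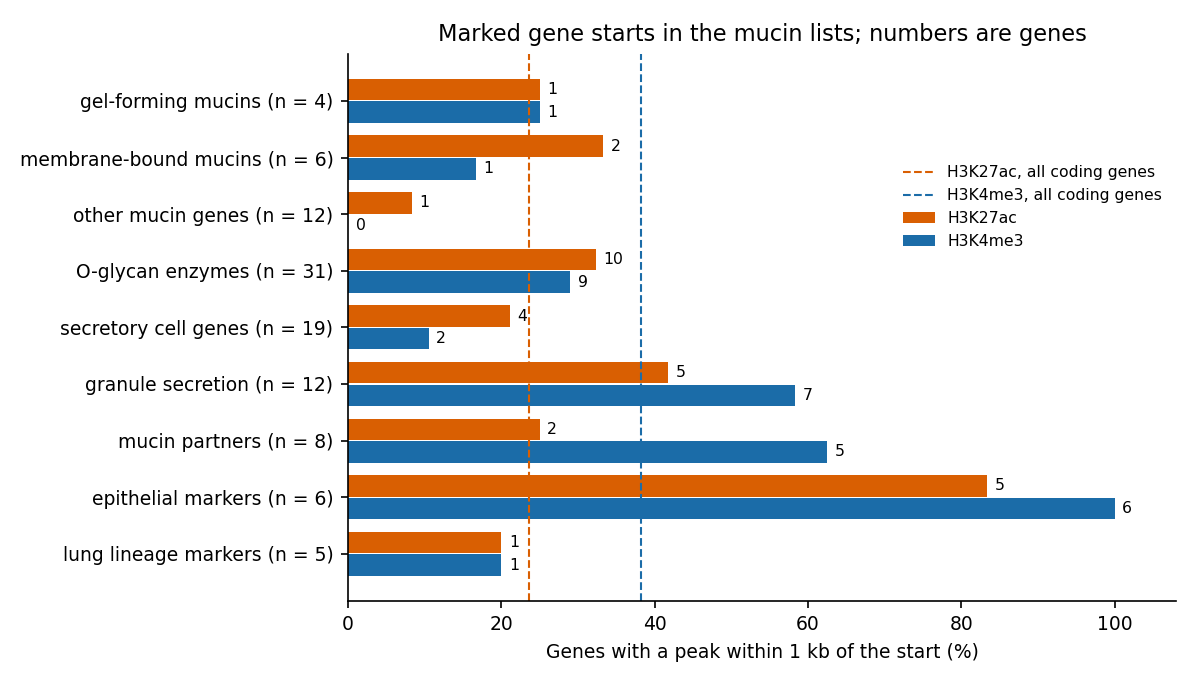
Share of genes (%) in each list with a peak within 1 kb of the start, H3K27ac in orange and H3K4me3 in blue, with the number of genes at each bar. Dashed lines are the shares over all coding genes, 23.6% and 38.2%. The other mucin genes have 1 marked start of 12 for H3K27ac and 0 for H3K4me3.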

How the data were processed

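ChIP-seq of H3K27ac and H3K4me3 in untreated H2087 cells was analysed from the peak list of each mark, 1 library each. The study's methods give alignment to hg19 by Bowtie and peak calling by MACS2. The submitters' processing notes name bcl2fastq 1.8.4, Bowtie 1.1.1, SAMtools 1.2, Picard 1.118, MACS2 2.1.0 and ChIPseeker 1.6.6. The calling threshold, the treatment of duplicate or multiply mapped reads are not given in the sources used here. The methods name normalization as the role of the input, but not whether it was the control in peak calling. The last column of the deposited lists has no header and was read as −log10 q from the numbers alone, since its smallest values lie just above 1.301, the −log10 of 0.05. It grows with depth and local copy number, so strengths were compared within a list only. Depth is unknown.

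Intervals listed once per summit by the authors (25275 and 20282 entries) were taken once, with the highest value. Positions are 1-based, and no peak passed a chromosome end of GRCh37, which is the same build as hg19. Gene starts were the outer 5′ ends in GENCODE 44 mapped to that build. Python 3.11.15 with numpy 2.4.6, pandas 2.3.3 and scipy 1.17.1 was used, and the interval code was tested on simulated data. With 1 library per mark there was no test, and counts were set beside the share of all protein-coding genes by the same rule. The genes named were the 10 mucin genes, the genes with the nearest start to their peaks, and from each list up to 3 genes with both marks at the start and well-known ones without. MUC5B-AS1, MUC20-OT1, LINC02688, THBS3-AS1, MIR92B, FOXA2, FOXA3, SPDEF, CREB3L1, CD164 and ERBB2 were also named, after their values were seen. The mucin genes and the lists were chosen with earlier results of these data known. Alternatives were other windows, other starts, stricter peaks and another overlap.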

Additional observations from a re-analysis of the deposited data

How the results depend on the processing

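No paired analysis was possible because there was a single library of each mark. For the same reason no library was left out in turn. Of 52 alternative values for 10 results, 32 stayed within the tolerance of a factor of 1.5 for counts or within the interval of a share, and 20 moved. Over the gene body alone, the mucin genes held 6 H3K27ac and 8 H3K4me3 peaks, in 3 and 2 genes. With flanks of 5 kb, 13 H3K27ac peaks were found, and with 50 kb, 42. Peaks at or above their list median left 12 H3K27ac peaks, 1 mucin start with H3K4me3 (MUC5B) and 14 of the 82 list genes with H3K27ac at the start. Peaks with a −log10 q of at least 5 left 5 H3K27ac and 4 H3K4me3 peaks. Over the whole lists, 8.84% of the H3K27ac and 16.7% of the H3K4me3 peaks reached that value. At that value 3 genes had H3K27ac in the window (MUC1, MUC4 and MUC5B), and 0 mucin starts had H3K27ac or H3K4me3. At that value 4 list genes had H3K27ac and 8 had H3K4me3 at the start, and 25% of the H3K4me3 peaks overlapped H3K27ac. With the starts of every transcript, 34 list genes had H3K27ac, and MUC5B had it beside MUC1, MUC2 and MUC4. MUC5B then had both marks, though not necessarily at the same start. Under a required overlap of 50% of the length of both peaks, the share was 16% of the H3K27ac and 25% of the H3K4me3 peaks. A window with H3K27ac but no H3K4me3 was found at 5 mucin genes. Of these, only MUC2 and MUC6 kept that state with peaks at or above their list median. With a −log10 q of at least 5, none of the 5 did. With flanks of 5 kb, all but MUC6 kept it. With 50 kb, MUC5AC and MUC20 also had H3K4me3, and MUC21 had H3K27ac alone. Most peaks around the mucin genes, like most peaks of both whole lists, had values below 5. Their presence therefore depends on the threshold of the peak lists, and unknown depth sets what could be found.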
